A study of Mus musculus with 18 samples.

Results

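The 10 genes described here encode cytosolic heat shock chaperones, their helpers and their main transcription factor, namely Hspa1a, Hspa1b, Hspa8, Hsph1, Dnajb1, Hsp90aa1, Hspb1, Hspb8, Bag3 and Hsf1. They were chosen by name, with earlier results of these data known, as were the lists of partner and marker genes used below. Shares over all genes are therefore set beside the counts of these genes as a description, not as a test. Each symbol was matched to 1 identifier of the count table through the GENCODE M39 annotation. The table holds 55414 genes, of which 21772 had at least 10 counts in total over all libraries and were tested. All 10 chaperone genes were among those tested.

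The RNA came from C2C12 cells, an established mouse myoblast line that fuses into myotubes when serum is lowered. Confluent myoblasts received a SMARTpool, a pool of siRNAs, that was non-targeting (siNtc), directed at the atypical MAP kinase Erk3 (siErk3, gene Mapk6) or directed at its partner kinase Mk5 (siMk5, gene Mapkapk5). After 6 days of differentiation the myotubes spent 16 h without serum, either with BSA alone or with 0.5 mM palmitic acid (PA) carried by BSA, a saturated fatty acid used to load the cells with lipid. The 6 groups, siNtc BSA, siErk3 BSA, siMk5 BSA, siNtc PA, siErk3 PA and siMk5 PA, hold 3 libraries each, 18 in all. All of them come from 1 cell line, the silencing is transient, and the sources do not say if replicate libraries stem from separate cultures, so p-values measure only the spread between these libraries.

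Total counts lay between 13041979 and 28496727 read pairs per library. Levels are given as CPM, read counts relative to library totals that were adjusted by TMM normalization factors. Mapk6 was at 57.4 ± 2.64 CPM (mean ± SD, n = 3) in siErk3 BSA against 132.3 ± 3.18 in siNtc BSA, and at 119.9 ± 11.4 in siErk3 PA against 231.8 ± 14.7 in siNtc PA. Mapkapk5 was barely counted, with 1.18 to 3.92 CPM over all libraries, and its log2 difference from siNtc, -0.61 in siMk5 BSA and -0.48 in siMk5 PA, did not pass the test (adjusted p = 0.469 in each). The paper also reports that the fall of this RNA missed its threshold, and states that Western blots showed efficient silencing of both kinases. All 7 myotube markers examined were expressed in every library, the lowest being Actn2 at 129.0 CPM or more, while the proliferation marker Mki67 lay between 153.3 and 454.3 CPM, so dividing or undifferentiated cells were also present. The 18S ribosomal RNA gene Rn18s-rs5 took 1.497% to 12.9% of the counts of a library, with the greatest shares, 8.39% or more, in siMk5 BSA.

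Heat shock chaperones hold unfolded proteins and help them to fold, or hand them over for degradation. In unstressed cells chaperones keep the transcription factor Hsf1 inactive. When unfolded proteins take up the chaperones, Hsf1 is released, assembles into an oligomer and binds heat shock elements, runs of inverted GAA and TTC units, in front of its target genes. Skeletal muscle uses the same machinery to fold myosin and to clear damaged sarcomere proteins, the latter through Bag3 together with Hspb8.

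The DNA in front of the genes is shown because it is where heat shock elements are looked for. A window from 250 bases upstream of the canonical GENCODE M39 transcript start to 50 bases downstream was searched for 2 adjoining inverted units, GAANNTTC or TTCNNGAA, where N is any base. Each of the 2 motifs reads the same on both strands, and they cannot begin at the same base. The letters were found for Hspa1a, Hspa1b, Hsph1, Dnajb1 and Hspb1, 5 of the 10 members, and in 13.1% of the 21600 tested genes with such a window (12.5% of the 14994 that code for protein). Hspa8, Hsp90aa1, Hspb8, Bag3 and Hsf1 had no match in this window, which says only that these letters are not there. A longer run of 3 units, GAANNTTCNNGAA or TTCNNGAANNTTC, occurred in 0 of the 10 members and in 0.51% of the tested genes. A match is a description of the sequence, not evidence of binding.

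The 250 bases upstream of the starts of Hspa1a (chr17:35191133-35191382, minus strand), Hspa1b (chr17:35178215-35178464, minus strand) and Hspb1 (chr5:135916510-135916759, plus strand) in GRCm39 are given 5′ to 3′ along the gene. Capitals mark the matches.
Hspa1a: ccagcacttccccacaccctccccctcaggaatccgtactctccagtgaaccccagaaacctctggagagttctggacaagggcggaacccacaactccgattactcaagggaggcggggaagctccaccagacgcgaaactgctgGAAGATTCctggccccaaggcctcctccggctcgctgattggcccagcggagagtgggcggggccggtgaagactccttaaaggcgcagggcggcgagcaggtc
Hspa1b: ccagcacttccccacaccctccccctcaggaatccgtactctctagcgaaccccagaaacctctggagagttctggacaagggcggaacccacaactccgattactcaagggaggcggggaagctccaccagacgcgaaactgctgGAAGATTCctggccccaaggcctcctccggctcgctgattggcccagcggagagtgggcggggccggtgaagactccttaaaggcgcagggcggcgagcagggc
Hspb1: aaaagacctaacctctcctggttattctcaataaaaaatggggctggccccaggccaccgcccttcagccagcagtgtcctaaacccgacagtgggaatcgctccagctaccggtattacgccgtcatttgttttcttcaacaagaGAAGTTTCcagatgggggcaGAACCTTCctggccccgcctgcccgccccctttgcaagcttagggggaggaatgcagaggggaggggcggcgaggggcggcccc
The match of Hspa1a and Hspa1b lies 104 to 97 bases upstream of the start, and 247 of their 250 upstream bases are identical, so these windows are not separate examples. Hspb1 has matches 104 to 97 and 84 to 77 bases upstream. Hsph1 has TTCTCGAA 28 to 21 bases upstream and TTCTGGAA 42 to 49 bases into the transcript, counting its first base as 1. Dnajb1 has GAAGGTTC 29 to 36 bases into the transcript.

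Hspa1a (ENSMUSG00000091971, chr17:35188166-35191132, minus strand) and Hspa1b (ENSMUSG00000090877, chr17:35175412-35178214, minus strand) are neighbours that encode the inducible cytosolic Hsp70. Of all stretches of 151 bases, the read length, in their transcripts, 39.5% and 40.3% also occur in another gene, namely in each other or in Hspa1l, and the authors' counting accepted read pairs that fitted 2 places. Their separate counts are therefore uncertain and their sum is also given. The same share was 55.3% for Hspa8 and 52.5% for Hspb1, which share stretches with pseudogenes, 33.4% for Hsp90aa1, and 0 for the other 5 members. In Hspa8, 6.1% of the exonic bases also belong to Snord14c, Snord14d or Snord14e on the same strand.

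The comparison of PA with BSA asks how lipid load alters the RNA of these chaperones. In siNtc myotubes 8 of the 10 members rose with PA and 0 fell, where 15.5% of all genes tested were called higher and 15.1% lower. A gene was called when its adjusted p was below 0.05 and its fold change above 1.3. Hspa1b rose most, 3.47-fold, followed by Hsph1 and Hspa1a, and then Dnajb1, Hsp90aa1, Hspb1, Hspa8 and Hsf1. Bag3 lay at the fold limit and Hspb8 did not pass. The median log2 fold change of the 10 members was 0.84, against -0.03 over all genes tested.

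With Erk3 silenced 7 of the 10 members rose with PA and 0 fell, where 15.8% of all genes were called higher and 16.3% lower. With Mk5 silenced 7 of 10 rose and 0 fell, with 15.1% of all genes called higher and 14.6% lower. The 7 were Hspa1a, Hspa1b, Hspa8, Hsph1, Dnajb1, Hsp90aa1 and Hspb1 in both cases. The median of the members was 0.82 and 0.78. The 3 PA comparisons use different libraries, but all were made in the same fit.

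**Figure D1:**
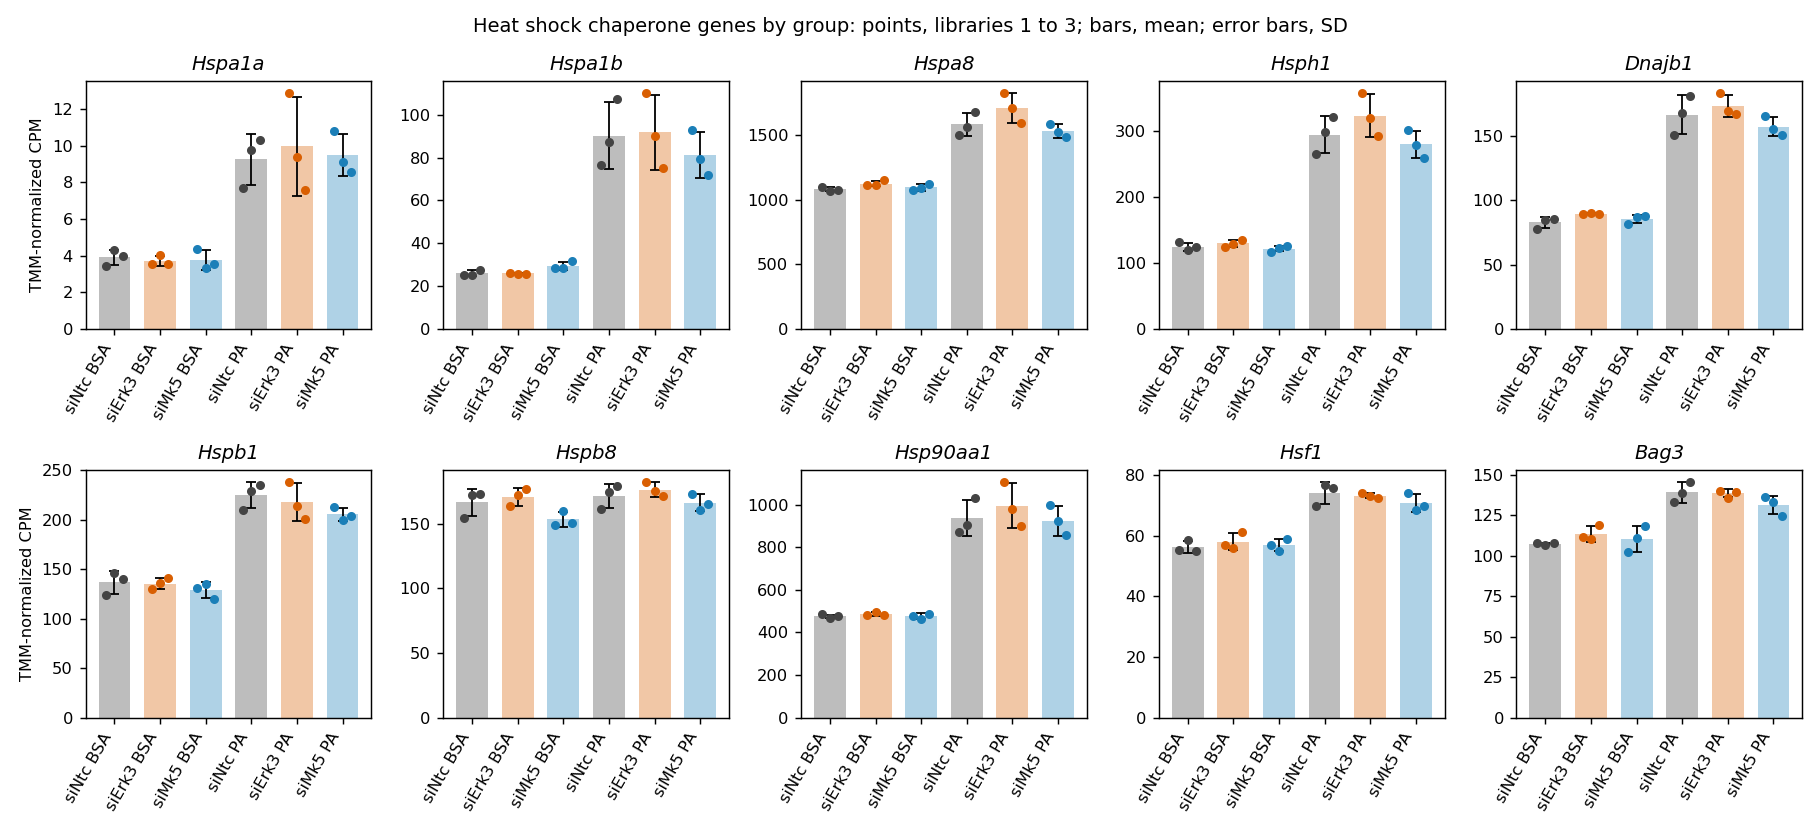
Normalised read count (CPM, linear axis from 0) of each gene in the 6 groups; points are the 3 libraries, bars the group mean and error bars the SD. In siNtc PA Hspa1b reached 76.3 to 107.2 CPM against 25.1 to 27.5 in siNtc BSA, while Hspb8 stayed between 149.2 and 182.6 CPM in all 18 libraries.

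Among the Hsp70 proteins, Hspa1b was low without PA, at 25.1, 25.1 and 27.5 CPM in siNtc, 26.2, 25.7 and 25.6 in siErk3, and 28.5, 28.2 and 31.5 in siMk5. With PA it was at 76.3, 87.3 and 107.2 CPM in siNtc, 110.2, 89.9 and 75 in siErk3, and 93.0, 79.2 and 71.8 in siMk5. Every PA library lay above every BSA library. The log2 fold change was 1.80 (SE 0.11, adjusted p = 2.21e-14) in siNtc, 1.83 (SE 0.11, adjusted p = 4.97e-15) in siErk3 and 1.47 (SE 0.11, adjusted p = 1.35e-12) in siMk5.

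Hspa1a was the least abundant member, with 49 to 103 counts per library in siNtc BSA. It was at 3.44, 4.29 and 3.97 CPM in siNtc BSA, 3.55, 4.01 and 3.54 in siErk3 BSA, and 4.36, 3.32 and 3.56 in siMk5 BSA. With PA it was at 7.69, 9.80 and 10.3 CPM in siNtc, 12.9, 9.41 and 7.59 in siErk3, and 10.8, 9.13 and 8.57 in siMk5. The BSA and PA libraries again did not overlap, and the log2 fold change was 1.22 (SE 0.16), 1.44 (SE 0.15) and 1.337 (SE 0.16) in siNtc, siErk3 and siMk5, with adjusted p of 1.71e-07, 2.06e-09 and 2.77e-08. When the counts of the neighbours were added before the fit, their sum went from 29.8 ± 1.47 to 99.5 ± 16.9 CPM (n = 3) in siNtc, from 29.5 ± 0.33 to 101.7 ± 20.3 in siErk3 and from 33.1 ± 1.76 to 90.9 ± 11.9 in siMk5. The log2 fold change of the sum was 1.73 (SE 0.11), 1.79 (SE 0.11) and 1.46 (SE 0.11).

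Hspa8 (ENSMUSG00000015656, chr9:40712280-40721383, plus strand) encodes the constitutive Hsc70, which folds new proteins and feeds chaperone-mediated autophagy. It was at 1096.7, 1069.8 and 1075.1 CPM in siNtc BSA, 1109.8, 1114.5 and 1148.8 in siErk3 BSA, and 1072.4, 1090.0 and 1123.3 in siMk5 BSA. With PA it was at 1501.1, 1563.3 and 1681.9 CPM in siNtc, 1827.1, 1706.8 and 1593.2 in siErk3, and 1588.7, 1524.0 and 1483.6 in siMk5. The fold change was 1.46, 1.52 and 1.40 (log2 0.55, 0.60 and 0.48, SE 0.05 each; adjusted p = 2.76e-11, 2.86e-12 and 4.22e-10). The inducible genes thus gained on the constitutive one. Per kilobase of exon, Hspa1a and Hspa1b together amounted to 4.21% ± 0.24 of Hspa8 in siNtc BSA and to 9.56% ± 1.06 in siNtc PA (SD, n = 3). The same percentage went from 4.0 ± 0.12 to 9.02 ± 1.19 in siErk3 and from 4.61 ± 0.18 to 9.03 ± 0.87 in siMk5. These percentages take 4301 exonic bases as the length of Hspa8, whose canonical transcript has 2394. With the shorter length they would be lower in both media, while their ratio between PA and BSA would stay the same.

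Hsph1 (ENSMUSG00000029657, chr5:149537752-149559841, minus strand) encodes Hsp110, a nucleotide exchange factor that lets Hsp70 release its client. In siNtc it was at 131.3, 119.2 and 123.6 CPM with BSA and at 264.5, 298.6 and 321.0 with PA. In siErk3 it was at 124.1, 129.0 and 135.1 CPM with BSA and at 357.9, 319.4 and 292.9 with PA, and in siMk5 at 117.1, 122.8 and 125.1 with BSA and 300.9, 279.0 and 258.9 with PA. Every PA library was above every BSA library. Hsph1 had the smallest adjusted p of the 10 members in each PA comparison (6.48e-16, 9.08e-17 and 1.46e-15), with log2 fold changes of 1.24, 1.32 and 1.20 (SE 0.07 each).

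Dnajb1 (ENSMUSG00000005483, chr8:84334822-84339282, plus strand) encodes Hsp40, the J-domain protein that delivers clients to Hsp70 and starts its ATP hydrolysis. In siNtc it was at 78.0, 85.0 and 85.7 CPM with BSA and at 150.9, 168.1 and 181.6 with PA. In siErk3 the values were 89.1, 90.0 and 89.5 CPM with BSA and 183.9, 169.6 and 167.6 with PA, and in siMk5 81.8, 87.1 and 87.7 with BSA and 165.8, 155.6 and 151.0 with PA. The ranges did not overlap, and the fold change was 2.01, 1.94 and 1.84 (log2 1.00, 0.96 and 0.88, SE 0.06 each; adjusted p = 2.3e-15, 3.49e-15 and 4.45e-14).

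Hsp90aa1 (ENSMUSG00000021270, chr12:110657039-110669162, minus strand) encodes the stress-inducible Hsp90 alpha, which matures kinases, steroid receptors and, in muscle, myosin. It was at 484.0, 468.6 and 474.8 CPM in siNtc BSA and at 871.8, 903.9 and 1031.6 in siNtc PA. It was at 479.6, 497.4 and 480.7 CPM in siErk3 BSA and 1108.6, 977.3 and 897.6 in siErk3 PA, and at 477.2, 462.2 and 488.6 in siMk5 BSA and 997.3, 921.1 and 855.4 in siMk5 PA. The BSA libraries of all 3 siRNAs lay between 462.2 and 497.4 CPM and the PA libraries were all higher, with fold changes of 1.97, 2.05 and 1.94 (log2 0.98, 1.03 and 0.96, SE 0.06 each; adjusted p = 3.49e-14, 6.91e-15 and 5.38e-14). Its constitutive paralog Hsp90ab1, a gene outside the 10 that was named after its values were seen, changed less, with log2 fold changes of 0.39, 0.41 and 0.29. Per kilobase, Hsp90aa1 amounted to 0.184 ± 0.0008 of Hsp90ab1 in siNtc BSA and 0.276 ± 0.016 in siNtc PA (SD, n = 3), to 0.182 ± 0.008 and 0.278 ± 0.020 in siErk3, and to 0.181 ± 0.008 and 0.285 ± 0.012 in siMk5.

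The small heat shock proteins did not respond alike. Hspb1 (ENSMUSG00000004951, chr5:135916773-135918417, plus strand) encodes Hsp25, the mouse Hsp27, which holds unfolded proteins without ATP and binds actin filaments. In siNtc it was at 124.1, 145.9 and 140.2 CPM with BSA and at 210.1, 229.5 and 235.4 with PA. In siErk3 it was at 129.9, 135.7 and 140.8 CPM with BSA and at 238.8, 213.6 and 201.0 with PA, and in siMk5 at 131.0, 135.2 and 119.8 with BSA and 212.8, 200 and 204.4 with PA. It rose 1.64-fold, 1.61-fold and 1.60-fold (log2 0.71, 0.69 and 0.68, SE 0.06 each; adjusted p = 2.38e-11, 4.07e-11 and 8.13e-11).

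Hspb8 (ENSMUSG00000041548, chr5:116546550-116560923, minus strand) encodes Hsp22, the small heat shock protein that works with Bag3. It was at 154.3, 172.4 and 172.7 CPM in siNtc BSA and 161.3, 174.8 and 178.8 in siNtc PA. It was at 163.4, 172.1 and 176.7 CPM in siErk3 BSA and 182.6, 174.9 and 171.3 in siErk3 PA, and at 149.2, 160.1 and 150.7 in siMk5 BSA and 173.0, 160.4 and 165.3 in siMk5 PA. The BSA and PA ranges overlapped in siNtc and siErk3. The log2 fold change was 0.04 in siNtc (95% confidence interval -0.06 to 0.15, adjusted p = 0.561), 0.05 in siErk3 (-0.06 to 0.15, adjusted p = 0.494) and 0.12 in siMk5 (0.01 to 0.22, adjusted p = 0.0644). These intervals leave out a 1.3-fold change, which is 0.38 on the log2 scale.

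Bag3 (ENSMUSG00000030847, chr7:128125340-128148705, plus strand) encodes the cochaperone that links Hsp70 and Hspb8 to selective autophagy of damaged sarcomere proteins. It was at 107.7, 106.3 and 107.7 CPM in siNtc BSA and 132.9, 139.0 and 145.8 in siNtc PA. It was at 111.3, 110.2 and 119.0 CPM in siErk3 BSA and 140.1, 135.6 and 139.6 in siErk3 PA, and at 102.4, 110.9 and 118.4 in siMk5 BSA and 136.0, 133.2 and 124.8 in siMk5 PA. The PA libraries were all above the BSA libraries. The log2 fold change was 0.377 in siNtc, just short of the limit of 0.379 that a 1.3-fold change corresponds to, and 0.28 in siErk3 and 0.25 in siMk5 (SE 0.05 each), so Bag3 was not called although its adjusted p was 2.42e-07, 1.54e-05 and 0.000126.

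Hsf1 (ENSMUSG00000022556, chr15:76361622-76386113, plus strand) encodes the transcription factor of the heat shock response, which is controlled mainly as a protein. It was at 55.3, 58.7 and 54.9 CPM in siNtc BSA and 69.8, 76.8 and 75.8 in siNtc PA. It was at 57.0, 55.9 and 61.3 CPM in siErk3 BSA and 74.1, 73.0 and 72.5 in siErk3 PA, and at 57.1, 55.0 and 58.9 in siMk5 BSA and 74.2, 68.6 and 69.9 in siMk5 PA. The log2 fold change was 0.395 (SE 0.05, adjusted p = 1.52e-07) in siNtc, just past the limit of 0.379, and 0.33 (adjusted p = 1.68e-06) and 0.32 (adjusted p = 6.38e-06) in siErk3 and siMk5, short of it. With the adjusted p as the only criterion 9 of the 10 members were higher with PA under each siRNA, the exception being Hspb8, where 23.9%, 24.1% and 23.4% of all genes were higher by that criterion in siNtc, siErk3 and siMk5. Leaving out siNtc BSA replicate 1 or 3, or siNtc PA replicate 2 or 3, brought Hsf1 below the fold limit (0.346 to 0.362), and leaving out siNtc PA replicate 1 brought Bag3 above it (0.404).

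**Figure D2:**
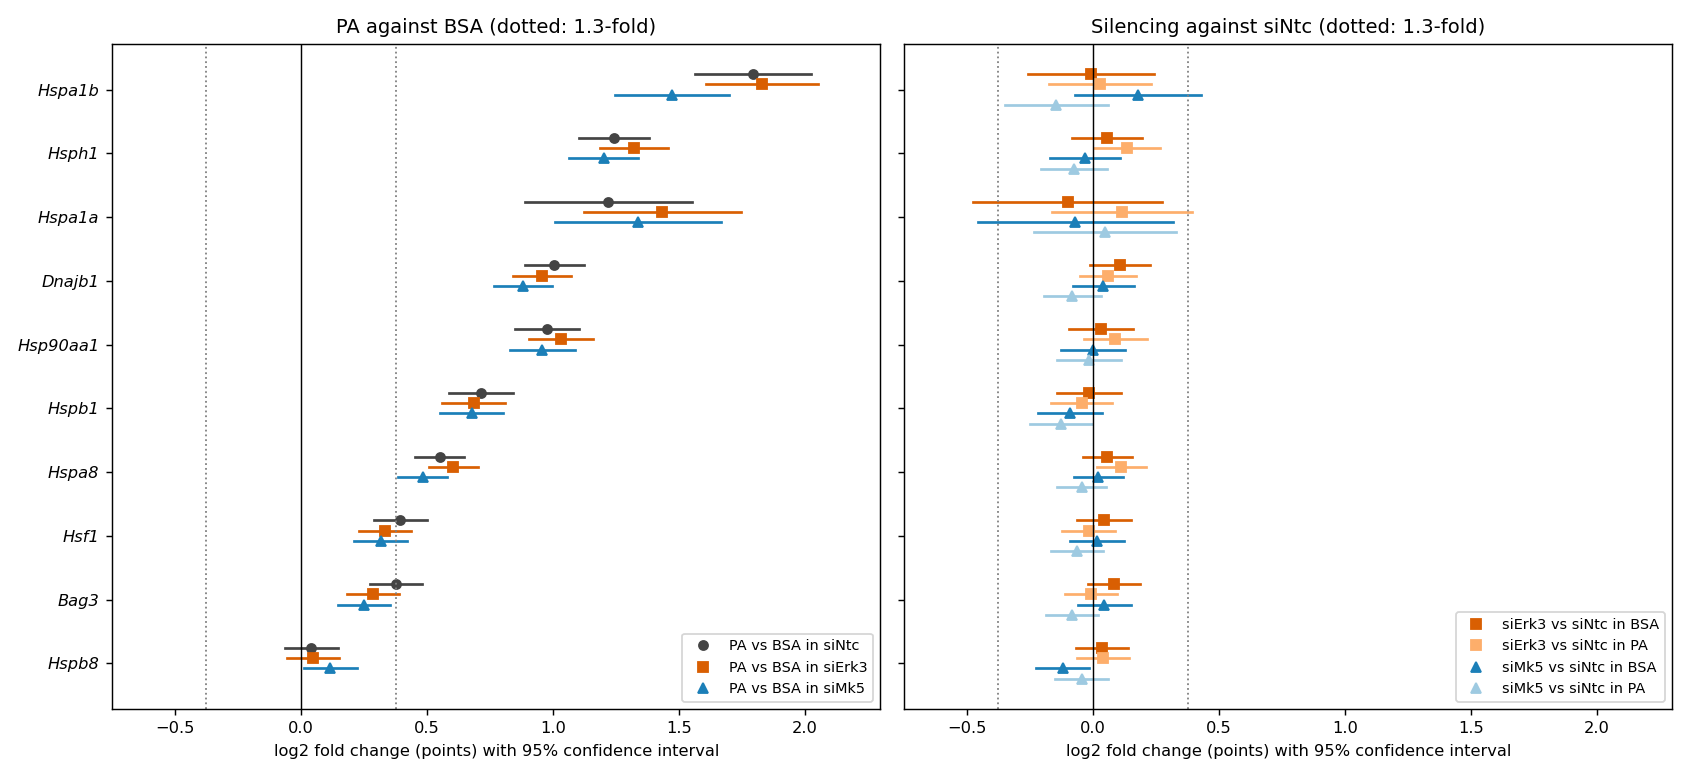
Log2 fold change (points) with 95% confidence interval (lines) of each gene for PA against BSA under each siRNA (left) and for silencing against siNtc in each medium (right); dotted lines mark a 1.3-fold change. The PA estimates run from 0.04 for Hspb8 to 1.83 for Hspa1b, while the silencing estimates lie between -0.15 and 0.18.

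The second question was whether silencing Erk3 or Mk5 altered the chaperones or their response to PA. By edgeR's test 0 of the 10 members were called in siErk3 BSA against siNtc BSA, where 0.785% of all genes were called, and 0 in siErk3 PA against siNtc PA, where 0.556% were called. For siMk5 0 of 10 were called with BSA (0.0643% of all genes) and 0 with PA (0.547%). DESeq2 also called 0 members in each of the 4 comparisons. At an unadjusted p below 0.05 edgeR found 0, 2, 1 and 1 of the 10 members in these 4 comparisons, where it found 10.6%, 8.27%, 6.89% and 6.78% of all genes, and DESeq2 found 0, 1, 1 and 1.

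Those few were small differences. With edgeR, Hspa8 was 0.11 higher on the log2 scale in siErk3 PA than in siNtc PA (unadjusted p = 0.0252, adjusted p = 0.49) and Hsph1 0.14 higher (unadjusted p = 0.0453, adjusted p = 0.586). Hspb8 was at 149.2 to 160.1 CPM in siMk5 BSA against 154.3 to 172.7 in siNtc BSA, a log2 difference of -0.12 (unadjusted p = 0.0249, adjusted p = 0.65). Hspb1 was at 200 to 212.8 CPM in siMk5 PA against 210.1 to 235.4 in siNtc PA, a log2 difference of -0.13 (unadjusted p = 0.0406, adjusted p = 0.713). For all 4 genes the ranges of the groups compared overlapped. On leaving out 1 library the estimate ran from 0.06 to 0.17 for Hspa8 and from 0.06 to 0.21 for Hsph1, lowest without siErk3 PA replicate 1 and highest without siErk3 PA replicate 3.

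The precision limits what these zeros say. Leaving aside Hspa1a and Hspa1b, the 95% confidence intervals of the other 8 members lay between 9.44% lower and 17% higher for siErk3 with BSA, and between 11.1% lower and 20.3% higher for siErk3 with PA. For siMk5 they lay between 14.5% lower and 11.8% higher with BSA, and between 16.0% lower and 7.85% higher with PA. The intervals of Hspa1a and Hspa1b were wider and reached from -0.48 to 0.43 on the log2 scale over the 4 comparisons, so for these genes a change of 1.3-fold lay within an interval in each comparison except siMk5 with PA. With PA and Mk5 silenced, 9 of the 10 estimates were below 0, with a median of -0.07 against 0.00 over all genes. These estimates share the same 6 libraries, so they are not separate observations.

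The interaction, the difference between the PA response with and without silencing, was called for 0 of 10 members in siErk3 (0.0367% of all genes) and for 0 of 10 in siMk5 (0.211%). At an unadjusted p below 0.05 edgeR found 0 of 10 members for siErk3 and 0 of 10 for siMk5, where it found 6.1% and 7.42% of all genes, and DESeq2 found 0 members in each. The lowest unadjusted p belonged to Hspa1b in siMk5, whose response was 0.32 smaller on the log2 scale than in siNtc (difference -0.32, SE 0.16, 95% confidence interval -0.65 to 0.001, unadjusted p = 0.0504, adjusted p = 0.673). Over the alternatives its adjusted p ran from 0.038 to 0.911 and its difference from -0.45 to -0.17. The low p came from the fit with no filter on low counts, where the difference of -0.32 was short of the fold limit. Adding Hspa1a to Hspa1b gave -0.28 (SE 0.16, adjusted p = 0.706). Outside Hspa1a and Hspa1b the intervals of the interaction lay between -0.24 and 0.27 for siErk3 and between -0.29 and 0.22 for siMk5.

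The libraries of a PA group differed among themselves in a common way. The 7 members called under all 3 siRNAs were all highest in replicate 3 of siNtc PA, in replicate 1 of siErk3 PA and in replicate 1 of siMk5 PA. They were lowest in replicate 1 of siNtc PA (7 of 7), replicate 3 of siErk3 PA (7 of 7) and replicate 3 of siMk5 PA (6 of 7). Outside the 7, Hspb8 and Bag3 were highest in the same PA libraries. Their log2 deviations there were 0.06, 0.051 and 0.058 for Hspb8 and 0.068, 0.017 and 0.051 for Bag3. Hspb8 was lowest in replicate 2 of siMk5 PA (-0.051) and Bag3 in replicate 2 of siErk3 PA (-0.03). Hsf1 was highest in replicate 2 of siNtc PA (0.053). The mean log2 deviation from the group mean over the 7 genes was 0.14 and -0.15 for the highest and lowest library of siNtc PA, 0.19 and -0.17 in siErk3 PA, and 0.11 and -0.09 in siMk5 PA. In the BSA groups the highest library held the top value for 3, 3 and 5 of the 7 genes, with mean deviations between -0.05 and 0.03. The 7 genes of a library are read from the same RNA, so this is a description of 9 PA libraries.

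**Figure D3:**
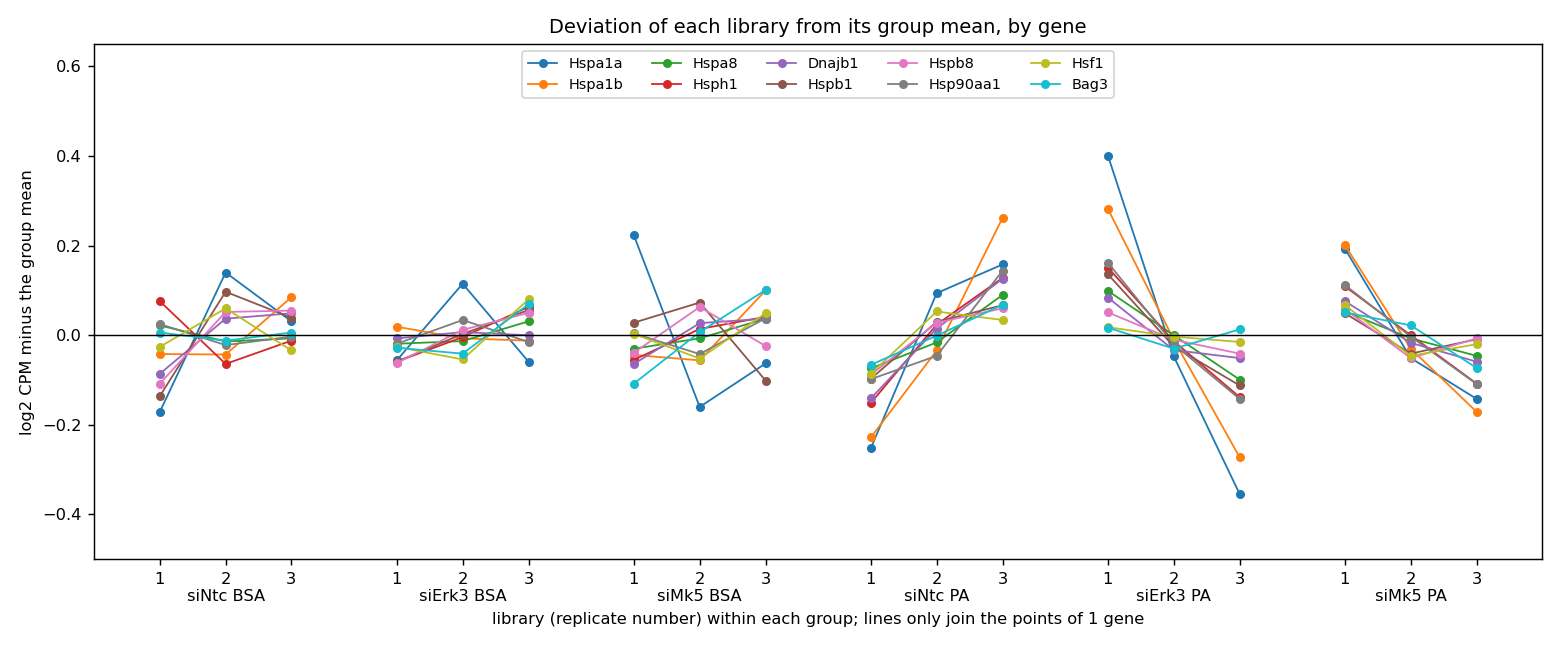
Log2 CPM of each library minus the mean of its group, 1 line per gene; the lines only join the 3 libraries of a group. In the PA groups the 7 genes called under all 3 siRNAs move together, with Hspa1a deviating by up to 0.40 (siErk3 PA replicate 1) and Hspb1 lowest in replicate 2 rather than 3 of siMk5 PA, and the lines cross in the BSA groups. Hspb8 and Bag3, outside the 7, are highest in the same PA libraries.

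Chaperones of the endoplasmic reticulum (ER) deviated in the same direction in those libraries, with means of 0.05 and -0.07 for the library highest and lowest in the 7 genes in siNtc PA, 0.05 and -0.07 in siErk3 PA, and 0.07 and -0.06 in siMk5 PA. The share of Rn18s-rs5 in the highest library was 6.43%, 3.74% and 4.34% and in the lowest 5.32%, 6.77% and 6.69%, so it was the greater in siNtc PA and the smaller in the other two. Total counts were 20616411, 23225146 and 22418219 in the highest and 22636931, 20737548 and 19782395 in the lowest. Over 9332 genes, deviations of replicates 1, 2 and 3 in siErk3 PA correlated with those of the same numbers in siNtc PA at -0.66, 0.0 and -0.67. For siMk5 PA against siNtc PA the correlations were -0.57, 0.03 and -0.47. The opposite order of replicates 1 and 3 thus ran over many genes and was not particular to the members. The part of the Rn18s-rs5 share, the total counts and this common order in the spread was not tested.

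Levels were compared between genes only per kilobase of exon, with all exonic bases of a gene in the count table as its length. For Hsf1 these are 7099 bases, against 5137 in its canonical transcript, and for Hspa8 4301 against 2394. The order of genes with close levels, such as Hspa1b and Hsf1, therefore depends on the length used. In siNtc BSA Hspa8 was the most abundant member at 251.2 ± 3.32 CPM per kilobase (SD, n = 3), followed by Hspb1 at 132.6 ± 11 and Hsp90aa1 at 121.0 ± 1.97, whose ranges overlapped. Hspb8 at 85.4 ± 5.42, Bag3 at 41.9 ± 0.30, Dnajb1 at 25.9 ± 1.33 and Hsph1 at 17.2 ± 0.84 followed without overlap. Hspa1b at 9.25 ± 0.48, Hsf1 at 7.93 ± 0.29 and Hspa1a at 1.32 ± 0.15 CPM per kilobase came last, also without overlap. The order was the same in siErk3 BSA and siMk5 BSA.

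With PA the order in siNtc was the same apart from Hspb1 and Hsp90aa1, whose ranges overlapped in both media. In siNtc PA Hspa8 was at 367.8 ± 21.4 CPM per kilobase, Hsp90aa1 at 238.0 ± 21.5 and Hspb1 at 218.2 ± 12.9, the last with overlapping ranges. Hspb8 at 88.0 ± 4.71 was followed by Bag3 at 54.3 ± 2.53, Dnajb1 at 52.1 ± 4.79, Hsph1 at 40.6 ± 3.92 and Hspa1b at 32.2 ± 5.59, where Bag3 overlapped with Dnajb1 and Hsph1 with Hspa1b. Hsf1 at 10.4 ± 0.54 and Hspa1a at 3.12 ± 0.46 remained lowest. In siErk3 PA the order differed from siNtc PA only in Dnajb1 and Bag3, at 54.2 ± 2.78 and 54 ± 0.97 with overlapping ranges. In siMk5 PA the order was that of siNtc PA, and Hsp90aa1, at 217.6 to 253.7, lay above Hspb1, at 193.9 to 206.4, without overlap. Summed over the 10 members, normalised read counts went from 2260.5 ± 5.45 to 3688.9 ± 263.6 CPM in siNtc, from 2336.5 ± 43.6 to 3908.0 ± 310.7 in siErk3 and from 2261.1 ± 43.6 to 3558.8 ± 181.2 in siMk5 (SD, n = 3), most of it from Hspa8 and Hsp90aa1.

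The partners of these chaperones in the cytosol were followed in lists of 45 genes, of which 10 rose and 6 fell with PA in siNtc, 11 rose and 7 fell in siErk3, and 7 rose and 3 fell in siMk5. Over all genes tested, 15.5% rose and 15.1% fell in siNtc, 15.8% and 16.3% in siErk3, and 15.1% and 14.6% in siMk5. The counts that fell in siNtc and siErk3 and the count that rose in siMk5 lie near those shares. A stricter filter on low counts left 15040 genes, of which 6355 were called for PA in siNtc in either direction, against 6661 of the 21772. The share is thus greater among well-counted genes, and the counts that rose in siNtc and siErk3 are not read as an excess. The median log2 fold change was 0.18, 0.17 and 0.18, below that of the 10 members. Among 29 cochaperones and paralogs of Hsp70 and Hsp90, 7 rose and 2 fell in siNtc. Fkbp4 and Ptges3, which belong to the Hsp90 cycle of steroid receptors, had log2 fold changes of 0.77 and 0.61, and Stip1, which passes clients from Hsp70 to Hsp90, had 0.54; these 3 were named after their values were seen. Dnajb5, a J-domain protein of striated muscle, fell by 0.57 (SE 0.05, adjusted p = 2.87e-10), and Unc45b, the myosin chaperone that works with Hsp90, fell by 0.49 (SE 0.05, adjusted p = 4.26e-09). Fkbp5, an immunophilin that binds Hsp90, fell by 0.50 in siMk5 (adjusted p = 1.33e-07) and by 0.48 in siErk3 (adjusted p = 1.16e-07). In siNtc its log2 fold change was -0.31 (adjusted p = 0.000167), short of the fold limit.

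None of the 5 other small heat shock proteins examined rose with PA under any siRNA. With 15.5%, 15.8% and 15.1% of all genes called higher in siNtc, siErk3 and siMk5, 0 of 5 lies near the background. In siNtc 0 rose and 3 fell, Hspb7 by 0.52, Hspb6 by 0.76 and Hspb3 by 0.47 on the log2 scale, while Cryab was at 0.10 and did not pass. In siErk3 4 of 5 fell, Hspb6 by 0.97 (SE 0.11, adjusted p = 1.06e-08). In siMk5 1 of 5 fell, near the background. Over all genes 15.1% were called lower in siNtc, 16.3% in siErk3 and 14.6% in siMk5. Of the other heat shock factors and the Hsf1 binding protein Hsbp1, 0 of 3 rose in siNtc and 1 fell, Hsf4, by 0.42. With 3 genes these counts cannot be set apart from the shares over all genes. The 8 subunits of TRiC, the chaperonin that folds actin and tubulin, had log2 fold changes between 0.17 and 0.58 in siNtc, and 3 were called higher. Of 3 autophagy partners of Bag3, 2 rose and 1 fell in siNtc, and 1 rose and 1 fell in siErk3 and in siMk5. Flnc, the actin crosslinker filamin C that Bag3 helps to clear, had log2 fold changes of 0.39, 0.28 and 0.28 and was called in siNtc. Sqstm1, the p62 receptor, rose from 416.8 ± 14 to 2239.1 ± 241.4 CPM in siNtc (log2 fold change 2.42); Flnc and Sqstm1 were named after their values were seen. Synpo2, which brings Bag3 to the autophagosome membrane, fell by 0.54 (SE 0.05, adjusted p = 1.89e-10).

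**Figure D4:**
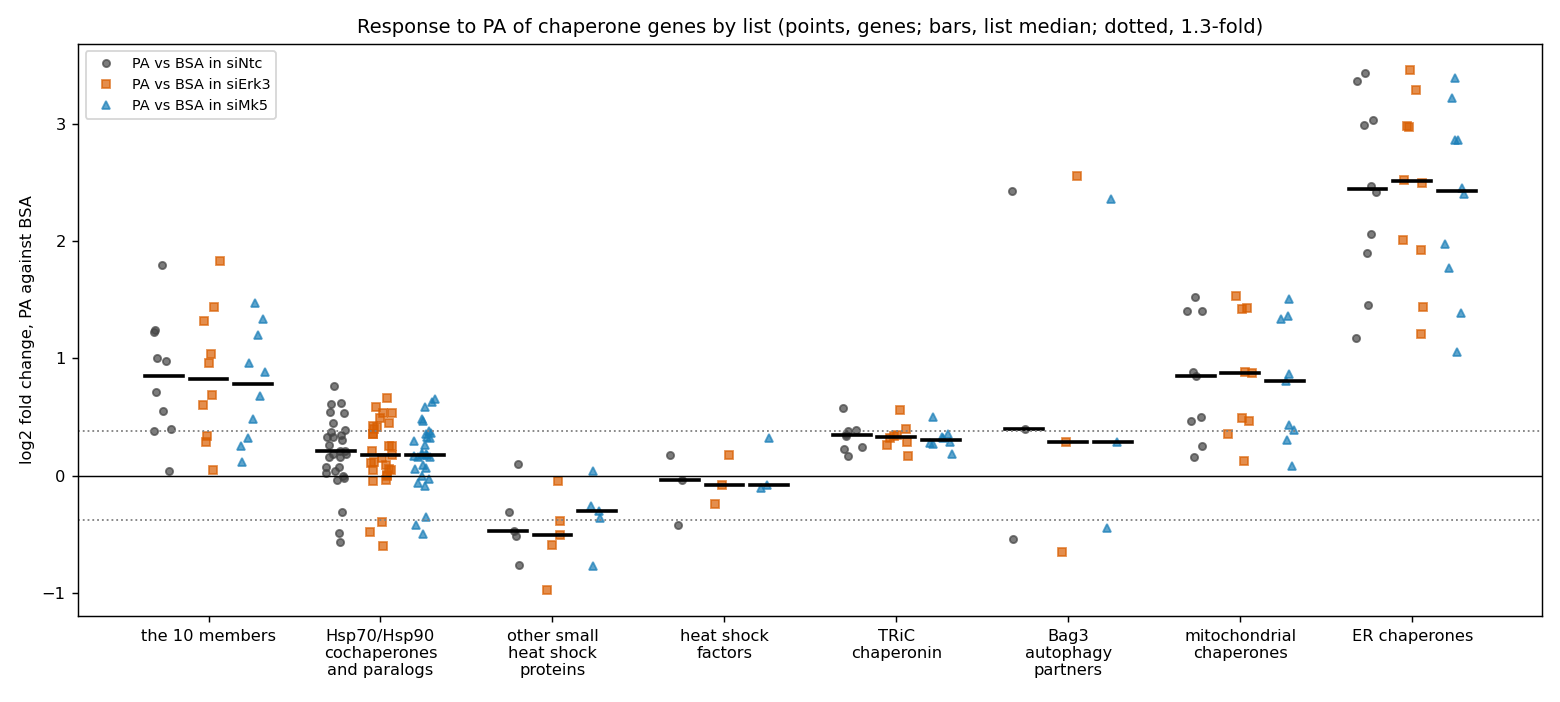
Log2 fold change of PA against BSA for the genes of each chaperone list under the 3 siRNAs; points are genes, bars the list median, dotted lines a 1.3-fold change. In siNtc the medians are 0.84 for the 10 members, 0.20 for the cochaperones, -0.47 for the other small heat shock proteins, 0.85 for the mitochondrial and 2.45 for the ER chaperones.

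Chaperones of other compartments moved with PA as well. All 10 ER chaperones examined rose under each siRNA, with medians of 2.45, 2.51 and 2.42 on the log2 scale. Over all genes 15.5%, 15.8% and 15.1% were called higher in siNtc, siErk3 and siMk5. Hspa5, the ER member of the Hsp70 family known as BiP, went from 784.9 ± 17.7 to 8457.7 ± 655.5 CPM in siNtc (SD, n = 3), a log2 fold change of 3.43 (SE 0.06, adjusted p = 9.5e-28). Hyou1, the ER counterpart of Hsph1, rose by 2.99 (SE 0.06), and the disulfide isomerase Pdia4 by 3.03 (SE 0.05). Of 9 mitochondrial chaperones and proteases 7 rose under each siRNA, with a median of 0.85 in siNtc, among them the Hsp70 member Hspa9 at 1.52 and the chaperonin Hspd1 at 1.40, both named after their values were seen.

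Beside these changes with PA, 5 of 6 markers of myoblasts and of dividing cells fell under each siRNA, with a median of -0.77 in siNtc, -0.97 in siErk3 and -0.95 in siMk5. Mki67 went from 408.2 ± 6.34 to 186.6 ± 14.5 CPM in siNtc, and Myf5 was the marker that did not pass. Of 7 myotube markers 2 fell in siNtc, 1 in siErk3 and 1 in siMk5, with medians of -0.26, -0.28 and -0.15, and Myog was called in each. With 15.1%, 16.3% and 14.6% of all genes called lower, the 1 of 7 in siErk3 and in siMk5 is close to the background and the 2 of 7 in siNtc is above it, a difference that was not tested. In bulk RNA fewer cells of a type and less RNA per cell cannot be told apart, and the part of these markers in the chaperone changes was not tested.

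Over all genes tested, silencing called 0.785% with BSA and 0.556% with PA in siErk3, and 0.0643% and 0.547% in siMk5. Of the 45 cytosolic partners it called 0 in siErk3 with either medium and 0 in siMk5 with PA, near those shares. In siMk5 with BSA it called 1 partner. That gene was Hspb7, a small heat shock protein of heart and skeletal muscle, at 58.5 to 88.8 CPM in siMk5 BSA against 103.3 to 117.6 in siNtc BSA, where it fell by 0.50 on the log2 scale (SE 0.09, adjusted p = 0.00828). Its estimates in the other silencing comparisons were also below 0 without being called, at -0.24 in siErk3 BSA (adjusted p = 0.27), -0.32 in siErk3 PA (adjusted p = 0.123) and -0.35 in siMk5 PA (adjusted p = 0.078). With PA it was at 76.7 to 79.4 CPM in siNtc, 60.3 to 65.4 in siErk3 and 56.1 to 66.7 in siMk5. The siMk5 BSA and siNtc BSA libraries did not overlap, but 1 siMk5 BSA library stood lower than the other two. Without siMk5 BSA replicate 3 the log2 difference was -0.33, short of the fold limit, and without siNtc BSA replicate 2 the adjusted p was 0.119. The interactions of the 45 partners with PA gave 0 calls for either siRNA. Over all genes 0.0367% were called for siErk3 and 0.211% for siMk5, so these counts of 0 are near the background.

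Genes whose log2 CPM ran most like a member's over the 18 libraries were listed as a description, since the libraries fall into a BSA and a PA set and Pearson's r mainly reflects that contrast. Among 12734 genes with a mean of at least 1 CPM, those nearest to Hspa1b were Itpripl2, Csf1 and Nrp1 (r = 0.997, 0.997 and 0.996). Nearest to Hspa8 were Gm15459 (r = 0.996), a pseudogene that shares stretches of read length with it, the TRiC subunit Cct7 (r = 0.994) and the peroxidase Prdx1 (r = 0.993). Hspb8, which was not called for PA under any siRNA, had lower values, with Klhdc3 (r = 0.83), the muscle regulatory factor Myf6 (r = 0.83) and Tomm34 (r = 0.81) nearest.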

How the data were processed

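The authors deposited 1 table of raw counts, in read pairs assigned to each gene in the 18 libraries. According to the methods and the header, reads were trimmed with cutadapt 3.4 and TrimGalore 0.6.7, aligned to GRCm39 with STAR 2.7.9a and counted with featureCounts 2.0.0 against Ensembl 105, with strand setting 2, primary alignments and a mapping quality of at least 3, which admits pairs that fit 2 places. The processing notes of the deposit name Salmon and another genome build instead. The methods and header were followed, and the coordinates given with the counts match GRCm39. A second table deposited by the authors, log2 values made from the counts, was not used. Groups and replicate numbers came from the sample labels, and no column belonged to other samples (0).

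Genes reaching 10 counts over all libraries, 21772, were fitted together in edgeR 4.0.16 (R 4.3.3) with TMM normalization, 1 coefficient per group and the quasi-likelihood test. Adjusted p-values are Benjamini-Hochberg values over all genes tested, and calls also needed a fold change above 1.3, as in the methods. CPM use TMM library sizes. Symbols, transcript starts and sequences came from GENCODE M39 (Ensembl 116) and its GRCm39 genome, gene coordinates and lengths from the count table. Each member had 49 or more counts in every library, and libraries of a group differed by more than counting error, so the spread between libraries sets the precision. Alternatives were DESeq2 1.42.0, its size factors, filterByExpr, no filter, the adjusted p alone, the Rn18s-rs5 share as covariate, only the groups compared, Hspa1a added to Hspa1b, the replicate block and leaving out each library. Counts were also simulated for 21329 genes. Between PA and BSA of siNtc, 200 of them with a mean of at least 1 CPM were shifted by 1 on the log2 scale. Of these, 98% were recovered, with 2 false calls, and the unshifted siErk3 BSA against siNtc BSA gave 1 false call. Changes near 1.3-fold were not simulated, nor were shifts shared by the genes of a library.

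The members and all lists of partner and marker genes were chosen with earlier results of these data known. Named beside the members are up to 3 partner genes per direction and comparison with the smallest adjusted p, Mapk6, Mapkapk5, Rn18s-rs5 and the 3 genes most like Hspa1b, Hspa8 and Hspb8. Any other gene is marked as named after its values were seen or illustrates the count of its list. Python 3.11.15 with pandas 2.3.3 served for the remaining steps.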

Additional observations from a re-analysis of the deposited data

How the results depend on the processing

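The counts of members called stayed within 1.5 times the reported ones in all 9 alternatives and when each of the 18 libraries was left out, and no call changed direction. They were 9, 9 and 9 with the adjusted p alone and 7, 6 and 6 of 9 genes when Hspa1a and Hspa1b were added. In siNtc the count went from 7 to 9 on leaving out 1 library. In siErk3, siMk5, the 4 silencing comparisons and both interactions, 0 members changed sides on leaving out a library, and 0 members met both criteria for silencing or interaction under any setting. With no filter the adjusted p of Hspa1b for the siMk5 interaction was 0.038, at a log2 difference of -0.32. Hsf1 in siNtc was below the fold limit with filterByExpr (0.373), and Bag3 in siNtc above it with the Rn18s-rs5 share as covariate (0.387). Hspb7 in siMk5 BSA had an adjusted p of 0.0735 when only the groups compared were fitted. Of 1121 member values not called either way, 74 changed sign. The replicate block gave 8, 7 and 7 members called for PA and 0 elsewhere. Same-numbered libraries deviated with correlations between -0.67 and 0.26 over 9332 genes, so the numbers were not taken to pair them. The strongly negative values, -0.66, -0.67, -0.57 and -0.47, came from replicates 1 and 3 of siErk3 PA and siMk5 PA against siNtc PA. The PA groups thus shared a pattern of deviation, in another order of libraries, that the fit did not model. In siMk5 BSA against siNtc BSA all 3 libraries correlated best with their own number, a hint from the data only. Calls over all genes moved by over 1.5 times outside the PA comparisons. For siErk3 with BSA they were 171, against 263 with the adjusted p alone, 111 with the Rn18s-rs5 share and 113 without siNtc BSA replicate 2. For siErk3 with PA they were 121, against 186 with the adjusted p alone, 208 with no filter and 71 with only the groups compared. For siMk5 with BSA they were 14, against 61 with no filter and 6 to 25 on leaving out a library. The siErk3 interaction had 8, against 0 with filterByExpr, 4 with DESeq2 size factors or only the groups compared, 29 with the Rn18s-rs5 share, 72 with no filter and 0 to 24 on leaving out a library. The siMk5 interaction had 46, against 0 with the Rn18s-rs5 share, 130 with no filter and as few as 22 without siMk5 BSA replicate 3. Depth was lowest for Hspa1a, with 49 to 294 counts per library. The cause of these shifts was not tested.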
